A study of Mus musculus with 22 samples.

Results

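Zfp521, Zfp423, Ebf1, Ebf2 and Ebf3 are 5 genes for transcription factors that bind each other or the same DNA, and their 5mC and 5hmC levels were described in cortex, olfactory bulb and cerebellum of C57BL/6 mice at 8 weeks of age. The members were taken by name, at the gene spans of GENCODE release M21 (GRCm38), and are 5 of 21755 protein-coding genes. For 5mC, every bin of 100 kb that overlaps a member was used, which gave 19 of 25664 bins, together with 50 bins within 500 kb on either side. For 5hmC, every bin of 1 Mb that overlaps a member was used, which gave 6 of 2581 bins, and the flanks reached into 4 more. The 3 tissues came from untreated animals without any engineered allele, and the study's methods give them as female. The cortex was the whole cerebral cortex without the hippocampus, and the cerebellum and olfactory bulb were taken whole. Replicates came from independent mice. OxBS-seq oxidizes 5hmC first, so that bisulfite leaves only 5mC to be read as C, and was run on 3 cortex, 2 olfactory bulb and 2 cerebellum libraries. TAB-seq shields 5hmC with a glucose and oxidizes 5mC, so that the C that remains is 5hmC, and was run on 3 libraries from each tissue. The RNA-seq libraries were not analysed here, so the dissections could not be checked against marker genes.

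A level is the modified fraction of the CpG reads or sites in a bin, from 0 to 1, and the coverage behind each bin is not given in the deposited files, so no interval for counting error is given. Across bins, replicates of a tissue correlated with Pearson's r of 0.947 to 0.982 for 5mC and 0.994 to 0.998 for 5hmC. The 5 genes were chosen by differences between these tissues that were already known, and which values were used is not recorded. Every difference of these genes between tissues is therefore treated as selected on and is given as a description without a p-value. All tissues are mixtures of cells, so a different make-up of cell types and a different level per cell cannot be told apart.

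Ebf1, Ebf2 and Ebf3 encode early B cell factors, helix-loop-helix proteins that bind DNA as dimers. They are known from B lymphocytes, from fat cells and from olfactory sensory neurons, where the family was first described as an olfactory factor, and Ebf2 also has a known role in cerebellar Purkinje cells. Zfp423 and Zfp521 encode closely related proteins with many zinc fingers. Zfp423 binds early B cell factors and also BMP-activated Smad proteins, and its loss in mice disturbs the midline of the cerebellum. Zfp521 is a known partner of early B cell factors in B cells and fat precursors and is linked to neural differentiation. In brain DNA, 5mC is the main modification of CpG sites, and 5hmC is made from it by TET enzymes.

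The start regions of 3 of these genes are shown because the bin that holds the start had the lowest 5mC level of its gene in Zfp423, Ebf1, Ebf2 and Ebf3, and the density of CpG differs between them. The sequences are RefSeq promoters of the GRCm38.p6 assembly, from 250 bases before to 50 bases after the start, on the strand of the gene. The table gave these 3, and Ebf2 is named only. Capitals mark each CG dinucleotide.
Zfp423: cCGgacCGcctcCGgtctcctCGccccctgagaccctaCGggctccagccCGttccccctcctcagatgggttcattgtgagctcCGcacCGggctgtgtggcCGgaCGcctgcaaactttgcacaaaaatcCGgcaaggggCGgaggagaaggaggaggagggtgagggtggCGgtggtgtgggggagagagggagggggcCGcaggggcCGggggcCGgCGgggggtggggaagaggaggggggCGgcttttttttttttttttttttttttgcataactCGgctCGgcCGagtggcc
Ebf1: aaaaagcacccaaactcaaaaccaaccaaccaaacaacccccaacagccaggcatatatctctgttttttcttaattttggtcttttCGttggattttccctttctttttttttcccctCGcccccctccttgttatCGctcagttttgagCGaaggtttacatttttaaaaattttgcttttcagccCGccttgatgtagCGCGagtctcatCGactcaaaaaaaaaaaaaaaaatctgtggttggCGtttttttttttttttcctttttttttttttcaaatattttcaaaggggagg
Ebf3: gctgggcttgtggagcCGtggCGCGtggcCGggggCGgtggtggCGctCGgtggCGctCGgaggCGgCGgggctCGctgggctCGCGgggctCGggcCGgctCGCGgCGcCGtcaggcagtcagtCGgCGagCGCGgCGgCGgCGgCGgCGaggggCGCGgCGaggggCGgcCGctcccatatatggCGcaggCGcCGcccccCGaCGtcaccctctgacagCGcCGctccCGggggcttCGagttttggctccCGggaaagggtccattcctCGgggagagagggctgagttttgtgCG
The Zfp423 window lies on the minus strand at chr8:87959546-87959845 and holds 21 CG dinucleotides. The Ebf1 window lies on the plus strand at chr11:44617850-44618149, 783 bp from the first base of the GENCODE gene, and holds 9. The Ebf3 window lies on the minus strand at chr7:137314396-137314695 and holds 46, more than 98.4% of the 32851 promoters in the table, whose median is 7. The letters CCCNNGGG, the core of the palindrome that early B cell factors bind, were searched on both strands. They occur 1 time in the Ebf3 window, are not in the other 2 windows, and are found in 13.7% of all promoters in the table. A match is a description of the sequence and not of binding.

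Over the 4 bins of Zfp423 (ENSMUSG00000045333.15, minus strand, chr8:87661810-87959595, 297786 bp of which 1.88% is exonic), the mean 5mC level was 0.624, 0.653 and 0.607 in the cortex libraries. It was 0.661 and 0.637 in olfactory bulb and 0.671 and 0.646 in cerebellum. The ranges of all 3 tissues overlapped. The cerebellum mean was 0.658 ± 0.0177 (SD, n = 2), against 0.628 ± 0.0235 (SD, n = 3) in cortex and 0.649 ± 0.0172 (SD, n = 2) in olfactory bulb. Cerebellum minus cortex was thus 0.0303 ± 0.0295 (root of the summed squared SDs), less than the shift of the genome. The median bin differed by 0.0585, and relative to the median of each library Zfp423 was lower in cerebellum than in cortex (-0.0261).

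**Figure D1:**
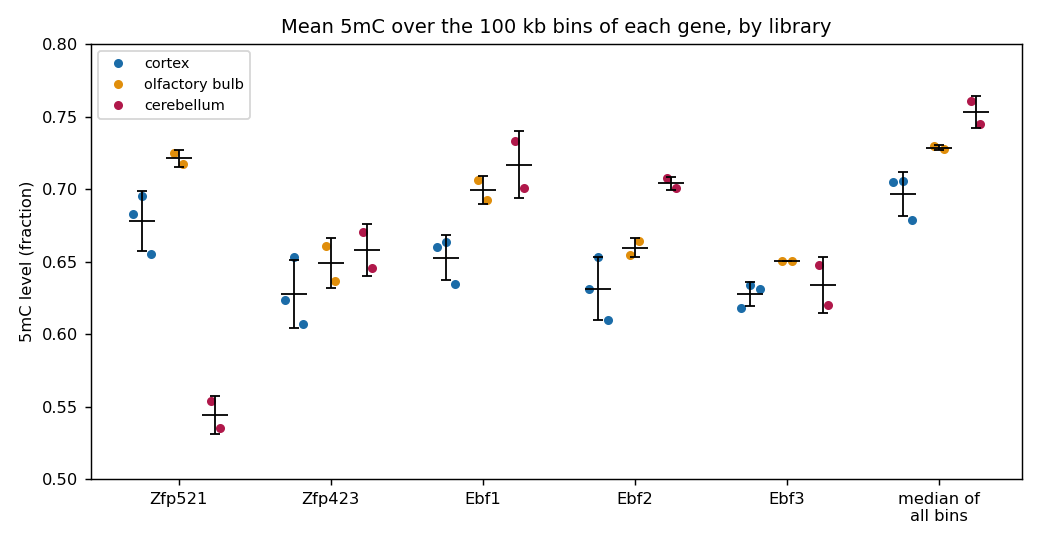
Mean 5mC level (fraction) over the 100 kb bins of each gene, with 1 point per oxBS-seq library and the mean ± SD of each tissue; the last column is the median of all bins. The Zfp521 libraries of cerebellum, at 0.554 and 0.535, lie below all others, while the median of all bins is highest in cerebellum.

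Zfp521 (ENSMUSG00000024420.9, minus strand, chr18:13687013-13972787, 285775 bp of which 2.46% is exonic) had a far lower 5mC level in cerebellum. The mean over its 4 bins was 0.683, 0.696 and 0.655 in the cortex libraries and 0.725 and 0.717 in olfactory bulb. In cerebellum it was 0.554 and 0.535, below every library of the other tissues. The cerebellum mean was 0.544 ± 0.0132 (SD, n = 2), the cortex mean 0.678 ± 0.0206 (SD, n = 3) and the olfactory bulb mean 0.721 ± 0.00567 (SD, n = 2). Cerebellum was lower than cortex by -0.133 ± 0.0245 and lower than olfactory bulb by -0.177 ± 0.0144. Cortex and olfactory bulb differed by 0.0433 ± 0.0214, near the 0.0307 of the median bin.

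The level below cortex lay in the 3 bins that hold most of the gene and not in the bins beside them. The bin from 13700001 lay at 0.513 and 0.480 in cerebellum and between 0.662 and 0.718 in cortex. The bin from 13800001 lay at 0.472 and 0.442 in cerebellum and between 0.638 and 0.692 in cortex. The bin from 13900001, which holds the start of the gene, lay at 0.499 and 0.485 in cerebellum and between 0.620 and 0.665 in cortex. In all 3 bins, cerebellum did not overlap the other tissues. Cerebellum minus cortex was -0.196, -0.215 and -0.146 in these bins, and the first 2 rank 33rd and 22nd from the lowest of all 25664 bins. The bin from 13600001 holds only 13.0 kb of the gene, at its 3' end, and there cerebellum exceeded cortex by 0.0233 ± 0.00807. This is less than the 0.0585 of the median bin. Cerebellum minus olfactory bulb was -0.0290 ± 0.00796 in that bin, and the libraries of these tissues did not overlap.

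No protein-coding gene other than Zfp521 is annotated in its 14 bins of gene and flanks. Over the 10 flank bins cerebellum averaged 0.786 ± 0.0100 (SD, n = 2), cortex 0.735 ± 0.0184 (SD, n = 3) and olfactory bulb 0.767 ± 0.00360 (SD, n = 2). All 10 had a higher mean in cerebellum than in cortex, by 0.0388 to 0.0708. Gene minus flank was -0.0567 ± 0.00572 in cortex and -0.0460 ± 0.00928 in olfactory bulb, but -0.242 ± 0.00318 in cerebellum. With only the 2 bins that lie wholly inside the gene, it was -0.310 in cerebellum. Among 2488 protein-coding genes of at least 100 kb, the cerebellum minus cortex difference of Zfp521 was the 7th lowest and its cerebellum minus olfactory bulb difference the 8th lowest. In cerebellum 3.46% of these genes had a lower level than Zfp521, whereas in cortex 68.8% did.

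**Figure D2:**
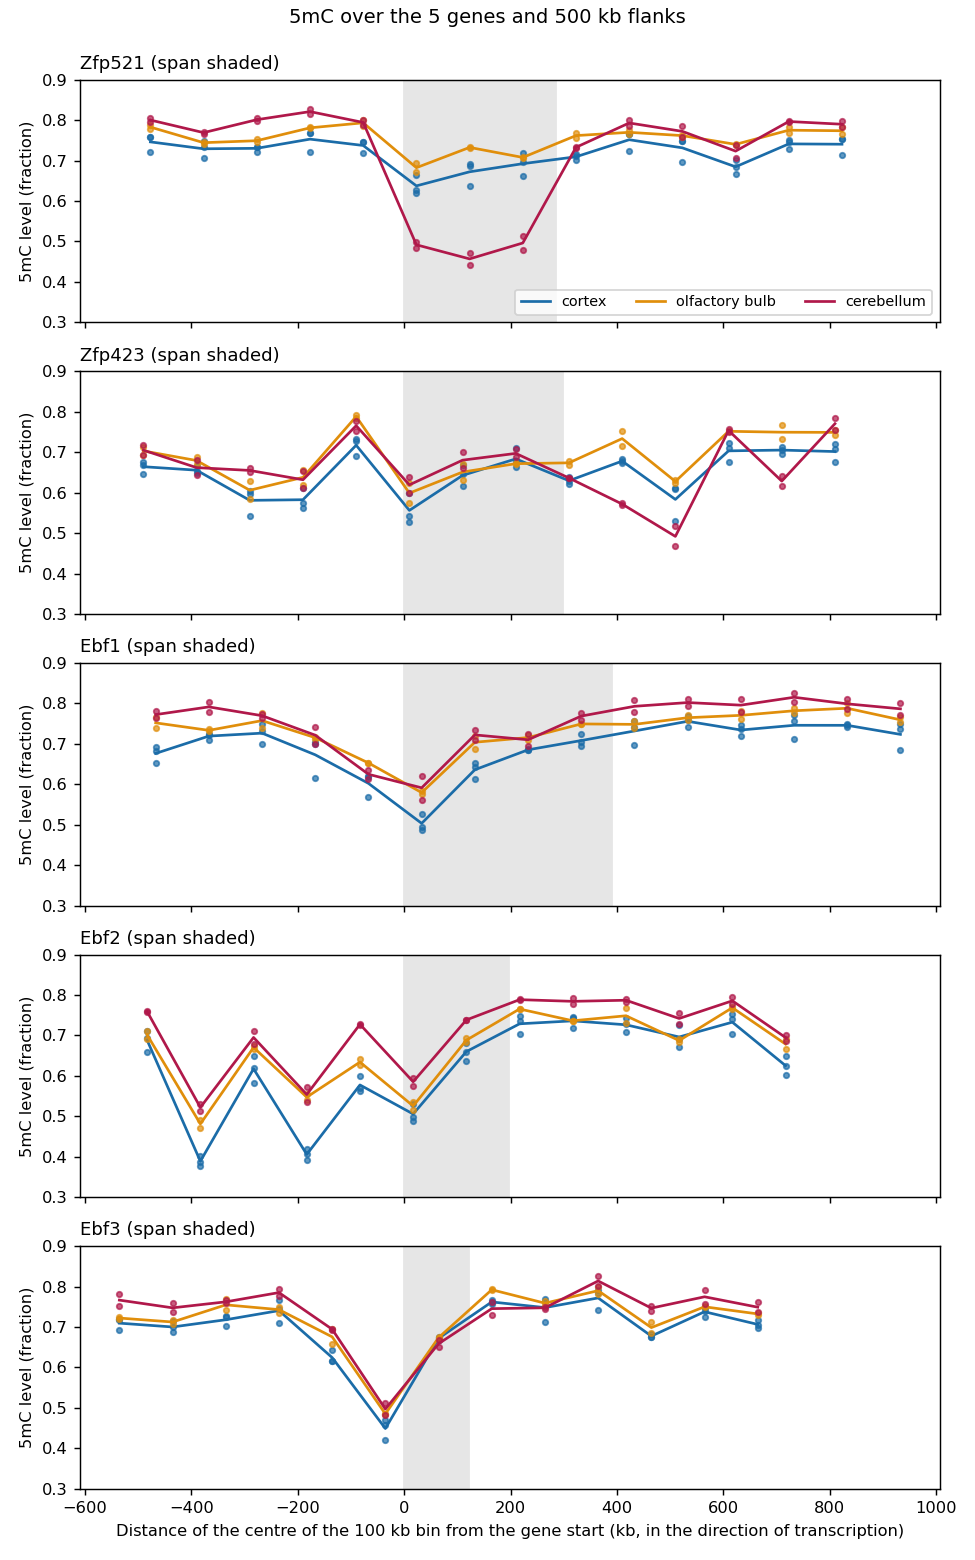
5mC level (fraction) in each 100 kb bin of the 5 genes and their 500 kb flanks, against the distance of the bin centre from the gene start (kb, in the direction of transcription); points are libraries, lines tissue means, and the gene span is shaded. In Zfp521 the cerebellum line falls from 0.794 in the bin before the gene to 0.457 inside it, while the cortex and olfactory bulb lines dip to no less than 0.638.

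Within Zfp423, the bin that holds the start had the lowest 5mC level, at 0.619 ± 0.0286 (SD, n = 2) in cerebellum, 0.556 ± 0.0377 (SD, n = 3) in cortex and 0.599 ± 0.0344 (SD, n = 2) in olfactory bulb. The other 3 bins had means between 0.629 and 0.697. Downstream of the gene the tissues parted. The bin from 87500001, which holds 4933402J07Rik, had 0.575 and 0.569 in cerebellum and between 0.672 and 0.684 in cortex. The bin from 87400001, with Cbln1, which encodes a cerebellin secreted by granule cells onto Purkinje cells, had 0.516 and 0.467 in cerebellum and between 0.531 and 0.611 in cortex. The bin from 87200001, with no protein-coding gene, had 0.640 and 0.617 in cerebellum and between 0.697 and 0.713 in cortex. Cerebellum was lower than both other tissues in every library of these 3 bins. Cerebellum minus cortex was -0.0311 over the downstream flank and 0.0438 over the upstream flank. Gene minus flank of Zfp423 in cerebellum was -0.00535 ± 0.000306 (SD, n = 2), and its sign depended on the flank: it was 0.0133 with flanks of 300 kb.

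Ebf1 (ENSMUSG00000057098.14, plus strand, chr11:44617317-45008091, 390775 bp, 2.50% exonic) had 5mC levels that, in cortex, were higher with each bin away from its start. From the start bin onward, the 5 bins had cortex means of 0.503, 0.636, 0.685, 0.708 and 0.732. In cerebellum they had 0.591, 0.722, 0.710, 0.769 and 0.793. Over the gene, the cortex libraries had 0.660, 0.664 and 0.635, the olfactory bulb libraries 0.706 and 0.692 and the cerebellum libraries 0.733 and 0.701. The cortex libraries lay below all others, and the other tissues overlapped. Cerebellum exceeded cortex by 0.0641 ± 0.0278 and olfactory bulb exceeded cortex by 0.0463 ± 0.0184. Of the long genes, 47.1% had a lower cerebellum minus cortex difference than Ebf1, so it lay near the middle of them.

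Ebf2 (ENSMUSG00000022053.13, plus strand, chr14:67233292-67430918, 197627 bp, 3.51% exonic) had 5mC levels of 0.631, 0.653 and 0.610 in the cortex libraries. The olfactory bulb libraries had 0.655 and 0.665 and those of cerebellum 0.707 and 0.701. The tissues did not overlap, in the order cortex, olfactory bulb, cerebellum, although cortex and olfactory bulb were only 0.0283 ± 0.0229 apart. Relative to the library medians that last difference turned to -0.00383. Cerebellum exceeded cortex by 0.0726 ± 0.0223. A larger gap between cerebellum and cortex lay upstream of the gene. In the bin from 67100001, next to the start bin and without a protein-coding gene, cortex had between 0.563 and 0.600 and cerebellum 0.729 and 0.726. Olfactory bulb lay between them there, at 0.642 and 0.627. In the bin from 67000001, with parts of Bnip3l and Ppp2r2a, cortex had between 0.392 and 0.419 and cerebellum 0.572 and 0.536. Olfactory bulb overlapped cerebellum in it, at 0.554 and 0.541, so cortex was the tissue that stood apart. The bin from 66800001, with Dpysl2, had between 0.376 and 0.402 in cortex, 0.490 and 0.472 in olfactory bulb and 0.530 and 0.514 in cerebellum. These are the 3 largest positive cerebellum minus cortex differences among the 69 bins of the 5 loci, at 0.150, 0.148 and 0.133.

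Ebf3 (ENSMUSG00000010476.14, minus strand, chr7:137193673-137314445, 120773 bp, 7.64% exonic) had 5mC levels of 0.647 and 0.620 in the cerebellum libraries, 0.618, 0.634 and 0.632 in cortex and 0.651 and 0.650 in olfactory bulb. Cerebellum overlapped cortex, with a difference of 0.00607 ± 0.0210 that turned to -0.00752 without cerebellum replicate 1 and to -0.0504 relative to the library medians. This is little for a long gene: 10.7% of the long genes had a lower difference, and the median long gene differed by 0.0670. In the start bin, which also overlaps the neighbour 9430038I01Rik, cerebellum had 0.497 ± 0.0225, cortex 0.449 ± 0.0259 and olfactory bulb 0.485 ± 0.00120. That bin holds 1712 CpG sites, against a median of 751 over all bins. The bin wholly inside the gene had 0.659 ± 0.0122 in cerebellum, 0.672 ± 0.00448 in cortex and 0.674 ± 0.00229 in olfactory bulb. The 10 flank bins were on average higher in cerebellum than in cortex, by 0.0453. Gene minus flank was -0.125 ± 0.00745 in cerebellum, -0.0858 ± 0.0181 in cortex and -0.0835 ± 0.00706 in olfactory bulb.

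**Figure D3:**
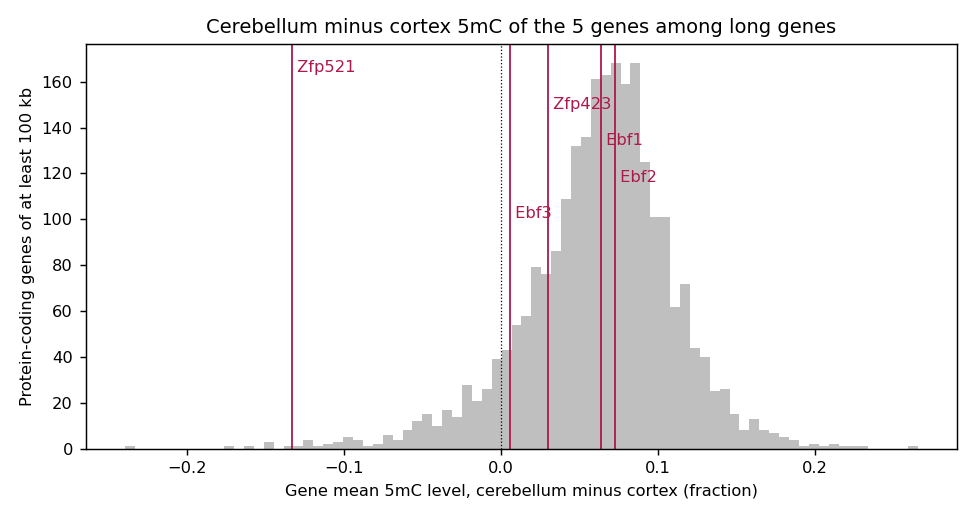
Histogram of the cerebellum minus cortex difference in gene mean 5mC level (fraction) over 2488 protein-coding genes of at least 100 kb, with the 5 genes as vertical lines and 0 dotted. Zfp521 lies in the far left tail at -0.133, Ebf3 at 0.00607 and Zfp423 at 0.0303 lie left of the bulk, and Ebf1 and Ebf2 lie within it.

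Bins with more CpG sites tended to have lower 5mC levels. Across the 69 bins of the 5 loci, the 5mC level and log2 of the number of CpG sites had Pearson's r of -0.604 in cerebellum, -0.598 in cortex and -0.686 in olfactory bulb, with Spearman's rho of -0.707, -0.672 and -0.725. These values are across bins that lie side by side in the same libraries and are given without a test. The 3 low bins of Zfp521 in cerebellum hold 990, 1081 and 1099 CpG sites, fewer than the start bins of the other 4 genes, which hold 1219 to 1712. They are also the most CpG-rich of the 14 bins at Zfp521, where the others hold 536 to 806, and between 69.9% and 77.9% of all bins hold fewer sites.

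The bins were also tested by limma on log2(level/(1 - level)) over all bins, at an adjusted p-value under 0.05. The whole table was shifted between tissues: the median log2 difference of all 5mC bins was 0.22 for olfactory bulb minus cortex, 0.43 for cerebellum minus cortex and 0.19 for cerebellum minus olfactory bulb. For olfactory bulb minus cortex, 8 of the 19 member bins passed, all higher, while 37.6% of all bins were higher and 2.18% lower. For cerebellum minus cortex, 9 member bins were higher and 3 lower, against 71.9% and 4.44% of all bins, and the 3 lower ones are the low bins of Zfp521. For cerebellum minus olfactory bulb, 3 were higher and 4 lower, against 35.3% and 7.69%, and the 4 are the same 3 bins of Zfp521 and the 3' bin of Ebf3. That Ebf3 bin holds only 6.33 kb of the gene. With each library centred on its own median, 1 member bin passed for olfactory bulb minus cortex, 9 for cerebellum minus cortex and 7 for cerebellum minus olfactory bulb, all lower. Of all 25664 bins, 2541, 6235 and 5459 were then lower and 2261, 6606 and 5671 higher, in the same order. Since these contrasts are treated as having chosen the genes, nothing is read from the counts. The test gave nearly the same standard error to every bin, so it does not follow the spread of a single bin.

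In the 1 Mb bin of Zfp521, of which the gene fills 28.6% and which also holds Hrh4, the 5hmC level was 0.187, 0.202 and 0.186 in the cortex libraries. It was 0.150, 0.161 and 0.154 in olfactory bulb and 0.218, 0.207 and 0.211 in cerebellum. Cerebellum lay above all other libraries, with a mean of 0.212 ± 0.00540 (SD, n = 3), whereas the median of all bins was lowest there, at 0.0931 (cortex 0.175, olfactory bulb 0.152). Cerebellum minus cortex was 0.0207 ± 0.0104, the 7th highest of 2581 bins, and cerebellum minus olfactory bulb 0.0570 ± 0.00794, the 4th highest. In the next bin upstream, cerebellum had only 0.106 ± 0.00256 (SD, n = 3), below cortex at 0.179 ± 0.00928 and olfactory bulb at 0.144 ± 0.00620.

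The bin of Zfp423, which the gene fills to 29.8%, also kept a high 5hmC level in cerebellum. The cerebellum libraries had 0.180, 0.186 and 0.189, those of cortex 0.188, 0.204 and 0.183 and those of olfactory bulb 0.162, 0.168 and 0.163. Cerebellum overlapped cortex, at a difference of -0.00640 ± 0.0116 (0.0752 relative to the library medians), and lay above olfactory bulb by 0.0208 ± 0.00533. The latter is the 22nd highest of all bins. The bin holds Cbln1 and 4933402J07Rik too, and at 1 Mb the share of each gene was not resolved. In the upstream bin cerebellum minus cortex was -0.0749 ± 0.0123.

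**Figure D4:**
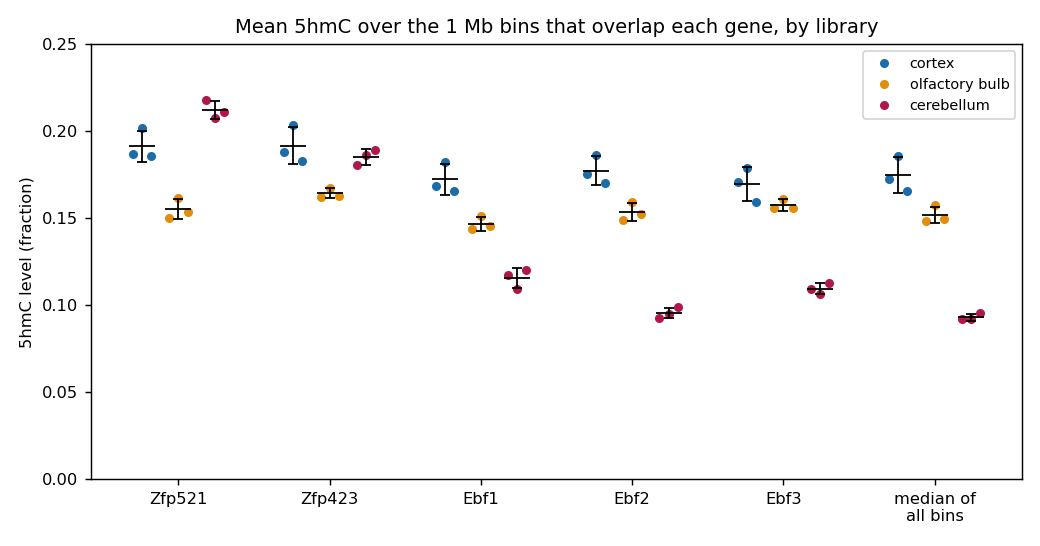
Mean 5hmC level (fraction, axis from 0) over the 1 Mb bins that overlap each gene, with 1 point per TAB-seq library and the mean ± SD of each tissue; the last column is the median of all bins. Cerebellum is highest for Zfp521 (0.212) and lowest for Ebf1, Ebf2, Ebf3 and the median of all bins.

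The early B cell factor genes had lower 5hmC in cerebellum, as most bins did. The Ebf1 bin from 44000001, which holds all but 8.09 kb of the gene, had 0.134 ± 0.00882 in cerebellum, 0.172 ± 0.0102 in cortex and 0.154 ± 0.00465 in olfactory bulb (SD, n = 3 each). Its cerebellum level exceeded that of 80.3% of all bins. The second Ebf1 bin, with only the 3' end, had 0.0973, 0.172 and 0.140 in the same order. The Ebf2 bin, of which the gene fills 19.8%, had 0.0957 ± 0.00303, 0.177 ± 0.00823 and 0.154 ± 0.00531, close to the median bin in all tissues. The Ebf3 bin, filled to 12.1%, had 0.109 ± 0.00304, 0.170 ± 0.00974 and 0.158 ± 0.00321, and its cortex and olfactory bulb libraries overlapped. After the median of each library was subtracted, cerebellum exceeded cortex in the bins of Ebf1 (0.0250, the unweighted mean of both bins) and Ebf3 (0.0212) and by 4.82e-06 in that of Ebf2.

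By limma over all 1 Mb bins, whose median log2 differences were -0.24, -0.97 and -0.72 in the same order of contrasts, 5 of the 6 member bins were lower in olfactory bulb than in cortex, where 67.7% of all bins were lower and 3.25% higher. In cerebellum 4 were lower than in cortex and 1 higher, that of Zfp521, against 97.6% and 0.426% of all bins. The higher call of Zfp521 was lost without cortex TAB-seq replicate 1 and without cerebellum TAB-seq replicate 1. In either case 4 member bins were lower and 0 higher. Against olfactory bulb, 4 were lower in cerebellum and those of Zfp521 and Zfp423 higher, against 91.8% and 1.20%. With each library centred on its median, 5 member bins were higher in cerebellum for either contrast and the remaining 1 did not pass, and olfactory bulb minus cortex had 1 higher and 2 lower. Of all 2581 bins, 1298 were then higher and 1035 lower in cerebellum than in cortex. Against olfactory bulb 1314 were higher and 1008 lower in cerebellum, and olfactory bulb minus cortex had 935 higher and 853 lower. These contrasts too are treated as having chosen the genes, and nothing is read from the counts.

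Both modifications could be set side by side in 1 Mb bins after the 5mC bins were averaged, although the values come from different libraries. In the Zfp521 bin 5mC in cerebellum differed from cortex by -0.0241 and 5hmC by 0.0207, and their sum was 0.896 ± 0.0144 in cerebellum, 0.899 ± 0.0225 in cortex and 0.901 ± 0.00596 in olfactory bulb (root of the summed squared SDs). The sum thus differed by -0.00334 ± 0.0267 between cerebellum and cortex, less than its error. Of this sum 5hmC made up 23.7% in cerebellum, 21.3% in cortex and 17.2% in olfactory bulb, against 11.5%, 19.4% and 17.0% in the mean of all bins. The Zfp423 bin had 21.8%, 22.5% and 19.1%, with a sum that differed by -0.00196 ± 0.0290 between cerebellum and cortex. The Ebf2 bin had 11.7% in cerebellum and the Ebf3 bin 13.2%. The sum in the Ebf3 bin was lower in cerebellum than in olfactory bulb by -0.0382 ± 0.0125, more than its error, and the mean of all bins was lower by -0.0258 ± 0.0126.

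**Figure D5:**
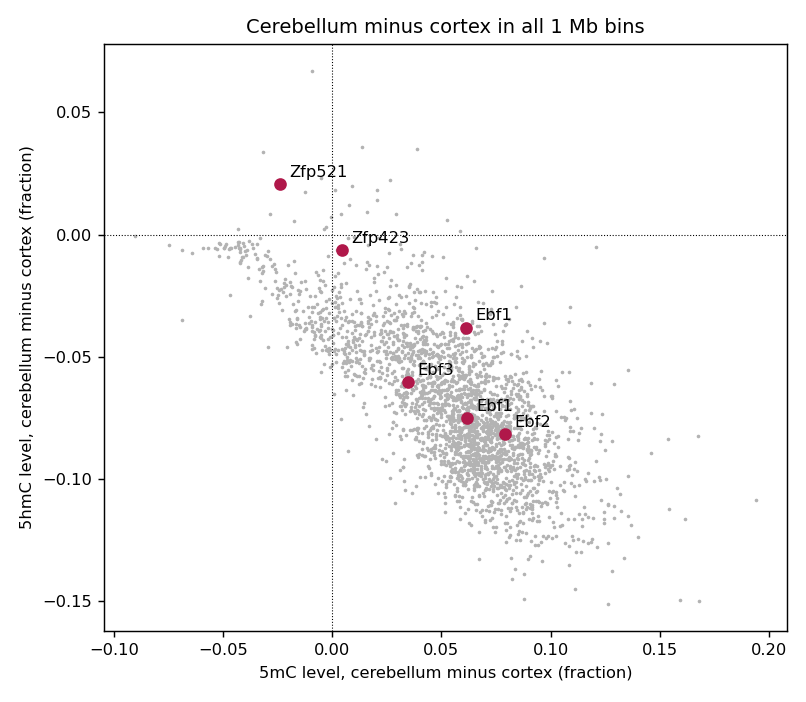
Cerebellum minus cortex difference in 5hmC level (fraction) against that in 5mC level (fraction) in all 2581 bins of 1 Mb, with the 6 bins of the 5 genes marked. The Zfp521 bin lies at -0.0241 for 5mC and 0.0207 for 5hmC, apart from most bins, in which 5mC was higher and 5hmC lower in cerebellum.

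Among the members, the gene means of 5mC over the 7 oxBS-seq libraries were most alike in Zfp423 and Ebf3, with a root mean square difference of 0.0189. Zfp521 was 0.0704 from Ebf3, its nearest member, and 0.0966 from Ebf2. Of 2482 other long genes, those nearest to Zfp521 were Il16 (0.0148) and Tmem266 (0.0169), both with lower means in cerebellum, at 0.526 and 0.569, than in cortex, at 0.687 and 0.667. Both were picked for levels near those of Zfp521 in the same 7 libraries, so their lower cerebellum means follow from that choice. Nearest to Zfp423 were Wdr25 (0.00898) and Fgfr2 (0.00944), and nearest to Ebf1 were Nedd9 (0.00588) and Snx29 (0.00639). Ebf2 had Gm4131 (0.00801) and Cfap61 (0.00886), and Ebf3 had Mcu (0.0127) and Amph (0.0140).

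A list of 38 further genes of this network was examined by the gene mean of 5mC: Ebf4, partners, BMP, retinoid and Notch signalling, the NuRD complex that Zfp521 recruits, and regulators of B cells, fat cells, hindbrain and olfactory neurons. The test was limma over 21718 protein-coding genes at an adjusted p-value under 0.05. In olfactory bulb against cortex 10 rose and 1 fell, against 26.4% and 0.866% of all genes. In cerebellum against cortex 19 rose and 1 fell, against 55.1% and 4.26%. In cerebellum against olfactory bulb 5 rose and 3 fell, against 18.0% and 7.69%. The 3 falls include Zic1 and Zic4, which share 1 bin. The median difference of the list was 0.0318, 0.0429 and 0.00677, beside 0.0300, 0.0444 and 0.0118 over all genes. With each library centred, the counts were 1 higher and 3 lower, 4 and 9, and 5 and 7. Of all 21718 genes, 774 were then higher and 1028 lower, 3330 and 5748, and 2986 and 4764, so lower calls were the more frequent over all genes too.

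Ebf4, the fourth gene of the family, had 0.668 ± 0.0172 (SD, n = 2) in cerebellum, 0.624 ± 0.00549 (SD, n = 3) in cortex and 0.668 ± 0.00565 (SD, n = 2) in olfactory bulb. It was higher in cerebellum than in cortex by 0.0445 (adjusted p = 0.0277, limma), near the 0.0444 of the median gene and under the 0.0585 of the median bin. That call was lost without cerebellum replicate 1 (adjusted p = 0.290, limma), without cortex replicate 1 (0.0880) and without cortex replicate 2 (0.0573). In the BMP group, 4 of 5 genes rose in cerebellum against cortex, beside the 55.1% of all genes, and Smad5, a signal transducer of BMP receptors, rose most, by 0.111 (adjusted p = 2.94e-06, limma). Smad5 also fell by 0.0620 in olfactory bulb against cortex (adjusted p = 0.0202, limma) and rose by 0.173 in cerebellum against olfactory bulb (adjusted p = 2.45e-09, limma). The fall was no longer past the threshold without cortex replicate 1 (adjusted p = 0.0528, limma) or without olfactory bulb replicate 2 (0.468). Of the 8 NuRD genes, 5 rose in cerebellum against cortex, a share near the 55.1% of all genes. Of the 7 hindbrain genes, 0 rose and 0 fell in that contrast. Pparg, the main regulator of fat cell differentiation, rose in cerebellum by 0.0975 against cortex and by 0.119 against olfactory bulb (adjusted p = 2.47e-06 and 9.63e-07, limma).

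Tcf3 encodes the E2A proteins that act with Ebf1 in B cells. It was the 1 gene of the list that passed as lower for cerebellum against cortex, where it fell by 0.0547 (adjusted p = 0.0127, limma), and it did not pass without cerebellum replicate 2 (adjusted p = 0.163, limma). In olfactory bulb against cortex, the largest rises were those of Lhx2 (0.0970, adjusted p = 0.000275, limma) and Emx2 (0.0707, adjusted p = 0.00772, limma), both homeobox genes of forebrain and olfactory development. The rise of Emx2 was not past the threshold without olfactory bulb replicate 1 (adjusted p = 0.0964, limma) or replicate 2 (0.0790). In cerebellum against olfactory bulb, Emx2 fell by 0.103 (adjusted p = 0.000217, limma). Zic1 and Zic4, zinc finger genes of the cerebellum that share 1 bin and so have 1 value, fell by 0.0680 (adjusted p = 0.00537, limma). Of the 7 hindbrain genes of the list, only these 2 passed as lower in that contrast and 0 as higher. Among the rest, Atoh1 and Lmx1a had higher means in cerebellum than in olfactory bulb, and Ptf1a, Lhx1 and Lhx5 lower ones. Smad5, Tcf3, Lhx2, Emx2, Zic1 and Zic4 each have the level of 1 bin of 100 kb, most of which lies outside the gene. The fall of Zic1 and Zic4 did not pass without cerebellum replicate 2 (adjusted p = 0.0849, limma) or without olfactory bulb replicate 1 (0.150). The list was drawn up with earlier results of these data known, and its counts are no test of the list. Its named genes, apart from Ebf4, were picked as the largest changes, so their adjusted p-values follow that choice and are descriptive.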

How the data were processed

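The authors mapped paired reads uniquely to mm10 (GRCm38) with Bismark, whose version is not given in the sources used here, and called modified CpG sites with a binomial model. What they deposited is a fraction between 0 and 1 for each bin and library, in 26327 bins of 100 kb for 5mC and 2641 bins of 1 Mb for 5hmC. How sites or reads were combined in a bin, and the coverage of each bin, is not given in the deposited files, so no precision from depth is stated. A bin was dropped from an assay where any of its libraries lists it at 0 or 1.

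The level of a gene was the unweighted mean over all bins that overlap it (GENCODE M21). Values are means ± SD over libraries, and the error of a difference is the root of the summed squared SDs. limma 3.58.1 (R 4.3.3) was fitted to log2(level/(1 - level)) with 1 term for tissue, over all bins or protein-coding genes of an assay, with Benjamini-Hochberg adjustment, and was tested on simulated data. The members and lists were chosen with earlier results of these data known. Named were the members, Ebf4, the 2 largest rises and 2 largest falls of the list per contrast, the 2 long genes nearest to each member, and neighbours in the same bins. Alternatives were other scales, filters, centring, limma options, weights, flanks, a replicate block and leaving out each library. CpG sites were counted in the GRCm38.p6 sequence. Tables were handled in Python 3.11.15 with pandas 2.3.3.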

Additional observations from a re-analysis of the deposited data

How the results depend on the processing

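The coverage of a bin is not given in the deposited files, and 5hmC in 1 Mb bins cannot be assigned to a gene. With 2 libraries in a tissue, leaving out 1 leaves a single library that is assumed to vary like the others. Counts of 5mC member bins for olfactory bulb minus cortex (8) were 4 with all bins kept, 1 with each library centred on its median and 0 to 9 with 1 library left out. They were 4 without cortex replicate 1, 4 without cortex replicate 3, 3 without olfactory bulb replicate 2 and 0 by limma without olfactory bulb replicate 1 (4 at an unadjusted p under 0.05). For cerebellum minus cortex (12) they ran from 10 to 13. For cerebellum minus olfactory bulb (7) they ran from 3 to 7, with 4 without olfactory bulb replicate 1, 3 without olfactory bulb replicate 2 and 4 without cerebellum replicate 1. The 5hmC count for olfactory bulb minus cortex (5) was 3 after centring. The list's counts were 6 with all bins kept, 4 centred and 2 to 15 with 1 library left out for olfactory bulb minus cortex (11), 13 centred and 7 to 22 for cerebellum minus cortex (20), where 7 was without cerebellum replicate 1, and 4 to 10 for cerebellum minus olfactory bulb (8), where 4 was without olfactory bulb replicate 1. The cause was not tested.

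Pairing by label number was undecided. Deviations of same-numbered libraries had r from -0.0932 to 0.0290 for 5mC (6 pairs, not independent) and from -0.191 to 0.429 for 5hmC (9 pairs). With the number as a replicate block, 5mC member bins for olfactory bulb minus cortex went from 8 to 4, and no other count moved by as large a factor. The deposited names number some oxBS-seq libraries otherwise. By those, 5 pairs had r from -0.0301 to 0.0458, and such a replicate block, chosen after seeing the data, gave 9, 13 and 7 member bins in the order above.

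With the library median subtracted, these differences changed sign: 5mC of Zfp423 for olfactory bulb minus cortex (-0.0112), cerebellum minus cortex (-0.0261) and cerebellum minus olfactory bulb (-0.0149), 5mC of Ebf1 for cerebellum minus olfactory bulb (-0.00662), 5mC of Ebf3 for cerebellum minus cortex (-0.0504), 5mC for olfactory bulb minus cortex of Ebf2 (-0.00383) and Ebf3 (-0.00942), 5hmC for cerebellum minus cortex of Zfp423 (0.0752), Ebf1 (0.0250), Ebf2 (4.82e-06) and Ebf3 (0.0212), 5hmC for cerebellum minus olfactory bulb of Ebf1 (0.0277), Ebf2 (0.000802) and Ebf3 (0.0107), and 5hmC of Ebf3 for olfactory bulb minus cortex (0.0106). Subtracting the median moves every value of a library alike, so a member that differs by less than the genome changes sign. Gene minus flank of Zfp423 turned positive with only inside bins in cortex (0.00589) and cerebellum (0.0251) and with flanks of 300 kb in cerebellum (0.0133), and that of Ebf2 with only inside bins in olfactory bulb (0.0229) and cerebellum (0.0332). Inside bins also turned 5mC of Zfp423 for olfactory bulb minus cortex (-0.00176) and of Ebf3 for cerebellum minus cortex (-0.0133, and -0.00615 weighted by overlap). Cerebellum minus cortex of Zfp521 in 5mC was -0.180 weighted by overlap, -0.206 with inside bins and -0.190 with the median subtracted. With 1 library left out, 5mC changed sign in Ebf3 for cerebellum minus cortex (-0.00752) and in Zfp423 for cerebellum minus olfactory bulb (-0.00316 and -0.00274), and so did gene minus flank of Ebf2 in olfactory bulb (0.000124) and cerebellum (0.00434). No other gene difference or gene minus flank value of the members did.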
